A study of Mus musculus with 15 samples.

Results

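Granule genes encode the proteins that a granulocyte stores in its cytoplasmic granules. The 10 genes followed here were Mpo, Elane, Prtn3, Ctsg, Ltf, Camp, Ngp, Lcn2 and the cytosolic protein genes S100a8 and S100a9. They are a list of named genes, drawn up with earlier results of these data known, with no measured value in its rule. All 10 were found among the 22342 protein-coding genes of chromosomes 1 to 19 and X in the annotation used. The question was whether C/EBPα opens granulocyte genes in pre-B cells that are turning into macrophage-like cells. At 4 of the 10 starts (Elane, Camp, S100a8 and Lcn2) both active marks were at least 2-fold higher at 48 than at 0 h post-induction (hpi), as at 2.34% of all coding starts. The Elane start was enriched for H3K4Me1 already at 0 hpi. Prtn3 carried both active marks from the outset. The starts of Mpo, Ctsg, Ltf, Ngp and S100a9 reached enrichment for neither mark at any time, a share of the 10 near the 45.7% of all coding starts. Near Mpo and within Ltf, however, H3K27Ac was higher at 48 hpi in 4 and 2 of 12 flanking windows of 3 kb. Over all coding genes 13.1% of such windows were higher, near the share at Ltf.

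The cells were C10, a clone of the mouse pre-B line HAFTL that expresses C/EBPα fused to the estrogen receptor hormone-binding domain, with GFP as a marker. Estradiol moves the fusion protein into the nucleus, and the cells were also given IL-3 and CSF-1. The paper reports weak C/EBPα signals in uninduced cells and proposes that the transgene was somewhat leaky. The 0 hpi state is therefore not known to be free of C/EBPα activity. Chromatin immunoprecipitation sequencing of H3K27Ac (active regions), H3K4Me1 (poised and active enhancers) and H3K27Me3 (Polycomb-repressed regions) was made at 0, 3, 12, 24 and 48 hpi, with 1 library per mark and time. Without replicates, the spread between samples of a time is unknown and nothing was tested. The line is 1 clone carrying a transgene, which limits it as a model. All cells were sequenced in bulk, so a larger share of cells carrying a mark and more of it per cell cannot be told apart.

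Neutrophil granules form in sequence. Primary (azurophil) granules, made at the promyelocyte stage, hold myeloperoxidase (Mpo) and the serine proteases neutrophil elastase (Elane), proteinase 3 (Prtn3) and cathepsin G (Ctsg). Secondary (specific) granules, made later, hold the iron-binding protein lactoferrin (Ltf), the cathelicidin precursor of an antimicrobial peptide (Camp), neutrophilic granule protein (Ngp), a relative of the cystatins, and the siderophore-binding lipocalin Lcn2. S100a8 and S100a9 encode the subunits of calprotectin, a cytosolic protein that withholds metal ions from microbes. C/EBPα and C/EBPε are known regulators of these genes in granulocytes, and activated macrophages can also make Lcn2, S100a8 and S100a9.

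The 250 bases before each start (mm9, strand of the gene) show what the sequences of genes with different outcomes have in common. Capitals mark matches on either strand to a C/EBP motif (TTGCNNAA), a PU.1 motif (GAGGAA), an AP-1 motif (TGANTCA) or a RUNX motif (TGTGGT). The first 4 promoters are those of the genes whose active marks were higher at 48 hpi, and the last 2 belong to genes whose starts stayed without them. Camp lies at chr9:109751971-109752220 (minus strand), Elane at chr10:79348807-79349056 (plus), S100a8 at chr3:90472743-90472992 (plus), Lcn2 at chr2:32243318-32243567 (minus), Mpo at chr11:87606833-87607082 (plus) and S100a9 at chr3:90499644-90499893 (minus). None of these stretches overlaps an annotated exon.
Camp: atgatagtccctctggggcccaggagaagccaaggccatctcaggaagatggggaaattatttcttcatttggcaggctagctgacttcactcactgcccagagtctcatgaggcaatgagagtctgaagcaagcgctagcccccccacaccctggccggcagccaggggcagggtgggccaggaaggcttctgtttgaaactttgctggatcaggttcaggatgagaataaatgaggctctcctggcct
Elane: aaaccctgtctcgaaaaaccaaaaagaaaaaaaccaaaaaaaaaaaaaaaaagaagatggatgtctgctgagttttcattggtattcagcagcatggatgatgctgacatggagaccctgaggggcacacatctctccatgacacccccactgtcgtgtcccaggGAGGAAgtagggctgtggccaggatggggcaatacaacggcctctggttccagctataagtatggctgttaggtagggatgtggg
S100a8: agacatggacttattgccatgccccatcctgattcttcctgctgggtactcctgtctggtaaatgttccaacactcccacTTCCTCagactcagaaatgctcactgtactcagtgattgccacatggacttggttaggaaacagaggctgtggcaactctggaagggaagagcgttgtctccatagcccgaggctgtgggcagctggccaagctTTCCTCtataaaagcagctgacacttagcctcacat
Lcn2: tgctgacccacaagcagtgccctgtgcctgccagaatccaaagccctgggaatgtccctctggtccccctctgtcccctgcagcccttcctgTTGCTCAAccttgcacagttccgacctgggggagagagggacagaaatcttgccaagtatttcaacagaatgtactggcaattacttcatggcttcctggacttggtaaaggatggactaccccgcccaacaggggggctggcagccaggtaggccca
Mpo: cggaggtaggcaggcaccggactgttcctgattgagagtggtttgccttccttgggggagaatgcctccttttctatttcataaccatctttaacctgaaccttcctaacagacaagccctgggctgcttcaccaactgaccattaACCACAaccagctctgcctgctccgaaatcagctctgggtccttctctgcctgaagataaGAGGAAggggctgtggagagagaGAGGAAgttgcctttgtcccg
S100a9: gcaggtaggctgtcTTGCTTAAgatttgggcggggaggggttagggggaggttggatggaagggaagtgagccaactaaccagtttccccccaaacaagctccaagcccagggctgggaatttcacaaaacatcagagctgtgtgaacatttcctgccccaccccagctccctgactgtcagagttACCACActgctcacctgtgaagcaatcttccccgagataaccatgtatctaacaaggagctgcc

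Over the 10 promoters, the C/EBP motif matched in 4 (Ltf, Ngp, S100a9 and Lcn2), against 9.06% of all 22342 coding promoters of this length. The PU.1 motif matched in 6 (Mpo, Elane, Prtn3, Ctsg, Ltf and S100a8), against 23.1% of all. The RUNX motif matched in 3 (Mpo, Ctsg and S100a9, against 12.6%) and the AP-1 motif in 0 (against 5.89%). Camp, whose start changed most, held no match to any of the 4 motifs in this window, which says only that these letters are not in it. What the 10 shared was a low CpG content. Their observed over expected CpG ratio had a median of 0.171 (range 0.0986 to 0.470), all 10 below the median of 0.503 over all promoters, whereas their GC content (median 53%) was near that of all promoters (54.4%).

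Tags were counted in 3 kb at each start after the libraries of each mark were thinned to equal depth (15.2 M tags for H3K27Ac, 10.9 M for H3K4Me1 and 15.3 M for H3K27Me3). A window of this size held on average 18.7, 13.4 and 18.8 tags, and it was called enriched from 34, 27 and 35 tags. A change was called at 2-fold after 5 tags had been added to both counts. By this rule 5.41% of all coding starts were higher and 9.46% were lower in H3K27Ac at 48 than at 0 hpi, 3.35% and 9.71% in H3K4Me1, and 1.57% and 1.92% in H3K27Me3. The higher starts made up 36.4%, 25.7% and 44.9% of these calls. Scaling by bins enriched at all 5 times gave 65.1%, 30.8% and 21.8%, and scaling by background bins gave 31.1%, 62.5% and 62.8%. The median log2 change over all starts was -0.15 for H3K27Ac (0.10 scaled by bins enriched throughout) and -0.27 for H3K4Me1 (0.05 scaled by background bins). The H3K27Ac libraries of 0 and 3 hpi held 523 and 438 tags in a segment of the immunoglobulin heavy chain locus on chromosome 12 where the other 13 held 0 to 4. Whether the cells of the 0 and 3 hpi H3K27Ac libraries came from the same culture as the others, or carried the same DNA there, is not given in the sources used here. The H3K27Ac changes from 0 to 12, 24 and 48 hpi cross this difference, as do comparisons between marks at 0 and 3 hpi. Its part in the results was not tested, so values from 12 to 48 hpi are also given.

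Marker genes were checked against the labelled cell types. The background for these H3K27Ac counts is 5.41% higher and 9.46% lower among all coding starts. All 8 B cell genes were at least 2-fold lower in H3K27Ac at 48 than at 0 hpi (summed tags 10222 to 3336), although all 8 starts were still enriched. Of 12 macrophage genes, 10 were higher and 0 lower (summed tags 951 to 4494), with 7 enriched starts at 0 hpi and 12 at 48 hpi. Of 6 genes of mast cells, basophils and eosinophils, 0 were higher and 0 lower at 48 hpi (summed tags 44 to 25), and their starts were enriched for H3K27Ac at no time. Of 6 genes used in every cell, 0 were higher and 1 was lower (summed tags 3187 to 2433).

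Across the 10 granule genes, 4 were higher and 0 lower in H3K27Ac at 48 hpi, against 5.41% and 9.46% of all coding starts. In H3K4Me1 4 were higher and 0 lower (against 3.35% and 9.71%). In H3K27Me3 1 was higher and 2 were lower (against 1.57% and 1.92%). The 4 genes higher in H3K27Ac and those higher in H3K4Me1 were the same, and both marks were higher at 2.34% of all coding starts. The median log2 change of the 10 was 0.00 for H3K27Ac, 0.65 for H3K4Me1 and 0.08 for H3K27Me3. Starts enriched for H3K27Ac went from 1 of 10 at 0 hpi to 5 of 10 at 48 hpi, against 46.2% and 47% of all coding starts, and those enriched for H3K4Me1 from 2 to 5, against 44.7% and 40.6%. For H3K27Me3 they were 6 of 10 at 0 hpi and 6 of 10 at 48 hpi, against 15.2% and 17.6%, with 5 enriched at both ends (Mpo, Ngp, S100a8, S100a9 and Lcn2, against 12.8%). The 5 starts enriched for neither active mark at any time compare with 45.7% of all coding starts.

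**Figure D1:**
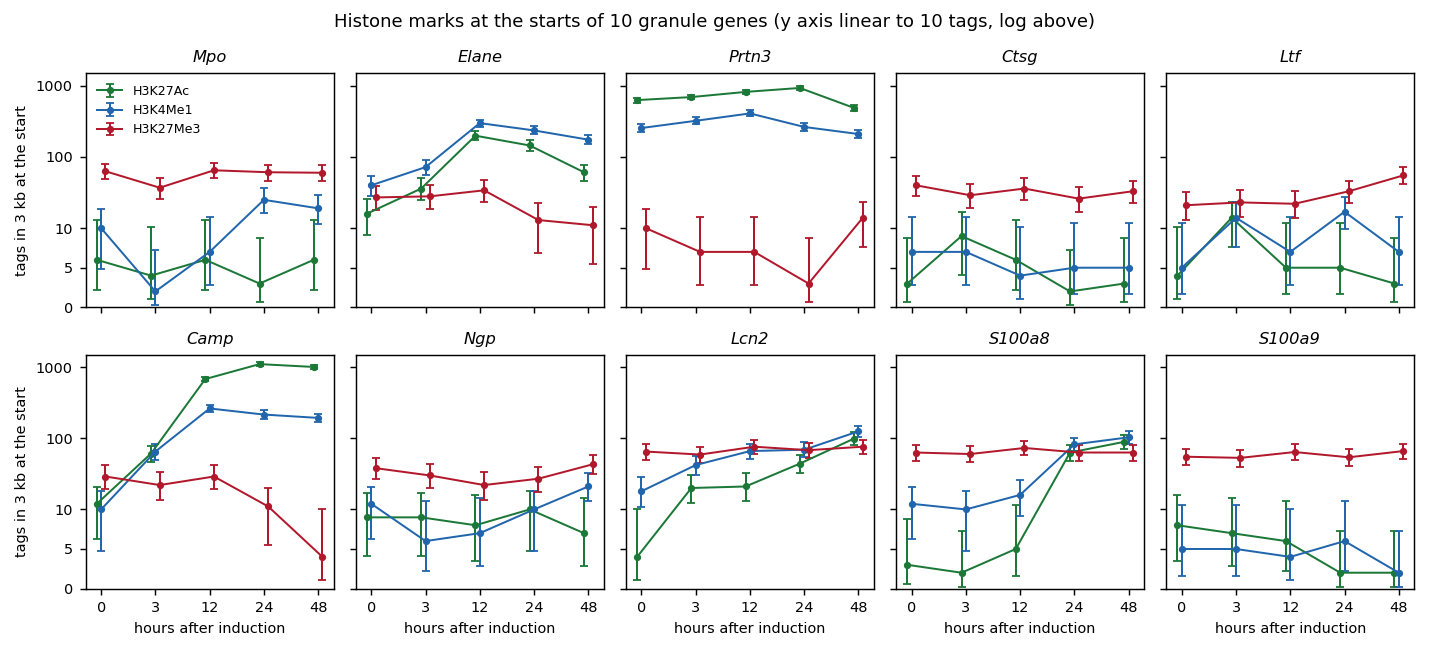
Tags in 3 kb at the start of each gene (y axis, linear to 10 tags and logarithmic above) at 0, 3, 12, 24 and 48 h after induction (x axis, evenly spaced), by mark. Points are single libraries thinned to equal depth and bars are exact 95% Poisson intervals of the counts. Camp went from 12 to 1003 H3K27Ac tags, Prtn3 stayed between 488 and 932, and S100a8 was higher from 24 h and Lcn2 from 3 h, over H3K27Me3 that stayed between 59 and 76 tags.

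Among the primary granule genes, Elane had a transient rise. Its start (chr10, position 79349057, plus strand) held 16, 36, 199, 145 and 61 H3K27Ac tags at 0, 3, 12, 24 and 48 hpi. The highest level came at 12 hpi with equal depth and with scaling by bins enriched throughout, and at 24 hpi with scaling by background bins (log2 changes from 0 hpi of 3.15 at 12 hpi and 3.38 at 24 hpi). The level at 12 hpi was 12.4 times that at 0 hpi (95% counting interval 7.47 to 22.2), and 48 hpi stood at 0.307 of 12 hpi (0.226 to 0.410). H3K4Me1 held 40, 72, 299, 236 and 175 tags with the same order of times, and was enriched from 0 hpi on. Within the start window of Elane, the 500 bp bin centered 1250 bp upstream held 11, 71 and 21 H3K27Ac tags at 0, 12 and 48 hpi. The bins centered 250 bp before and after the start held 0 and 1 tags at 0 hpi, 22 and 41 at 12 hpi, and 3 and 9 at 48 hpi. Just outside the window, the bin centered 2250 bp upstream held 54, 115 and 74 tags. H3K27Me3 at Elane held 27, 28, 34, 13 and 11 tags, never enriched, and its log2 change of -1 lay on the threshold.

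Prtn3 lies 6698 bp upstream of Elane on the same strand. Its start (chr10, position 79342359) held 629, 694, 820, 932 and 488 H3K27Ac tags and 255, 322, 409, 264 and 210 H3K4Me1 tags, enriched at all times. H3K27Me3 held 10, 7, 7, 3 and 14 tags, below the genome mean throughout. Prtn3 was the only member whose start was enriched for H3K27Ac in uninduced pre-B cells. Whether leaked C/EBPα had a part in this was not tested. The change from 0 to 48 hpi was within 2-fold for all 3 marks, with log2 changes of -0.36 (H3K27Ac) and -0.27 (H3K4Me1) whose sign depended on the scaling (0.05 when scaled by bins enriched throughout for H3K27Ac, 0.27 when scaled by background bins for H3K4Me1).

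Mpo and Ctsg stayed without active marks at their starts. The Mpo start (chr11, position 87607083, plus strand) held 6, 4, 6, 3 and 6 H3K27Ac tags, and the Ctsg start (chr14, position 56721411, minus strand) held 3, 9, 6, 2 and 3. Every count was below the genome mean of 18.7 tags. H3K4Me1 at Mpo held 10, 2, 7, 25 and 19 tags, more at 24 and 48 hpi but never enriched, and at Ctsg 7, 7, 4, 5 and 5 tags. H3K27Me3 covered the Mpo start at all times with 63, 37, 65, 61 and 60 tags. At Ctsg it held 40, 29, 36, 26 and 33 tags, enriched at 0 and 12 hpi.

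Among the secondary granule genes, Camp had the largest change. Its start (chr9, position 109751970, minus strand) held 12, 61, 678, 1099 and 1003 H3K27Ac tags, with enrichment from 3 hpi on. The level at 48 hpi was 83.6 times that at 0 hpi (95% counting interval 47.6 to 162), and only 8 of the 22342 coding starts had a larger log2 change than the 5.89 of Camp. H3K4Me1 held 10, 65, 262, 215 and 193 tags (19.3-fold, 10.3 to 40.9, with 11 starts above its log2 change). H3K27Me3 held 29, 22, 29, 11 and 4 tags, a log2 change of -1.92 that 5 starts exceeded downward, although the start was not enriched at 0 hpi. H3K27Ac at Camp thus came before the loss of H3K27Me3 tags, which were as many at 12 as at 0 hpi. Around the start the H3K27Ac profile of Camp had a dip, with 271 tags at 48 hpi in the 500 bp bin centered 750 bp upstream, 85 in that 250 bp upstream and 194 in that 750 bp downstream.

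Lcn2 was higher more slowly. Its start (chr2, position 32243317, minus strand) held 4, 20, 21, 44 and 99 H3K27Ac tags (24.8-fold from 0 to 48 hpi, 95% counting interval 9.37 to 92.6), enriched from 24 hpi. H3K4Me1 held 18, 42, 66, 69 and 125 tags (6.94-fold, 4.22 to 12.1) and was enriched from 3 hpi. At equal depth both marks were already at least 2-fold higher at 3 hpi (log2 changes of 1.47 for H3K27Ac and 1.03 for H3K4Me1). H3K4Me1 began nearer its enrichment limit, so the order of enrichment is not an order of rise. H3K27Me3 was enriched at all times and did not change by 2-fold, with 65, 59, 76, 68 and 76 tags.

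Ltf and Ngp had no active mark at the start. The Ltf start (chr9, position 110921796, plus strand) held 4, 14, 5, 5 and 3 H3K27Ac tags and 5, 14, 7, 17 and 7 H3K4Me1 tags. H3K27Me3 at Ltf held 21, 23, 22, 33 and 55 tags, enriched at 48 hpi only, a 2.62-fold rise (95% counting interval 1.56 to 4.56) that 83 of all coding starts exceeded. That rise passed 2-fold in 6 of 10 settings. Before thinning, the Ltf start held 57 H3K27Me3 tags at 0 hpi in a library of 31.5 M positions. At 48 hpi it held 55 in a library of 15.3 M. The counting interval does not cover the random thinning. The Ngp start (chr9, position 110322254, plus strand) held 9, 9, 8, 10 and 7 H3K27Ac tags, 12, 6, 7, 10 and 21 H3K4Me1 tags and 38, 30, 22, 27 and 43 H3K27Me3 tags. Camp, Ngp and Ltf lie within 1169826 bp of each other on chromosome 9 and differed in their active marks.

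The calprotectin genes also differed from each other. The S100a8 start (chr3, position 90472993, plus strand) held 3, 2, 5, 63 and 89 H3K27Ac tags, at or below 5 until 12 hpi and enriched at 24 and 48 hpi. The ratio of 48 to 0 hpi was 29.7 with a 95% counting interval of 9.83 to 147, and 110 coding starts had a larger log2 change. H3K4Me1 followed the same times with 12, 10, 16, 82 and 103 tags (8.58-fold, 4.71 to 17.2). S100a9 (chr3, position 90499643, minus strand), 26650 bp away, held 8, 7, 6, 2 and 2 H3K27Ac tags and 5, 5, 4, 6 and 2 H3K4Me1 tags, below the genome means throughout. H3K27Me3 was enriched at both starts at all times, with 63, 60, 73, 63 and 63 tags at S100a8 and 55, 53, 64, 54 and 66 at S100a9. At S100a8 the active marks were therefore measured over H3K27Me3 that had not fallen. Whether both kinds of mark lay in the same cells was not measured.

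The order of H3K27Ac levels at 48 hpi was Camp (1003 tags), Prtn3 (488), Lcn2 (99), S100a8 (89) and Elane (61), with the other 5 genes at 7 tags or fewer. The 95% Poisson intervals of Lcn2 and S100a8 overlapped, as did those of S100a8 and Elane. Counted from 12 hpi, 2 genes were higher at 48 hpi (S100a8 17.8-fold, 7.35 to 56.2, and Lcn2 4.71-fold, 2.92 to 7.95) and 1 was lower (Elane), against 2.36% and 4.73% of all coding starts. Camp changed by 1.48 times (1.34 to 1.63) over that span, most of its rise lying before 12 hpi. The 4 higher genes thus differed in time. From 12 to 48 hpi Elane was lower, and S100a8 and Lcn2 were higher, under all 3 scalings, with log2 changes of -1.63 to -1.40, 3.23 to 3.54 and 2.00 to 2.26. The time of the highest level was less firm. With equal depth it was 24 hpi for Camp and 48 hpi for S100a8 and Lcn2. It moved to 48 hpi for Camp when scaled by bins enriched throughout (log2 changes from 0 hpi of 6.04 at 24 hpi and 6.30 at 48 hpi), and to 24 hpi for S100a8 when scaled by background bins (3.61 and 3.49).

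Each gene was next followed in 6 windows of 3 kb on either side of the start window, together 19.5 kb each way. Over these 120 flanking windows, 41 were at least 2-fold higher in H3K27Ac at 48 hpi (34.2%) and 0 were lower, against 13.1% and 5.58% of such windows of all coding genes. H3K4Me1 was higher in 37 and lower in 2 (against 8.65% and 10.1%), and H3K27Me3 was higher in 0 and lower in 3 (against 1.27% and 1.94%). The windows of Elane and Prtn3 overlap, and so do those of S100a8 and S100a9. Without Prtn3 and S100a9, 28 of 96 flanking windows were higher in H3K27Ac (29.2%) and 29 in H3K4Me1 (30.2%). Windows enriched for H3K27Ac, start windows included, went from 18 to 49 of 130, against 15.7% and 22.4% of such windows of all coding genes.

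**Figure D2:**
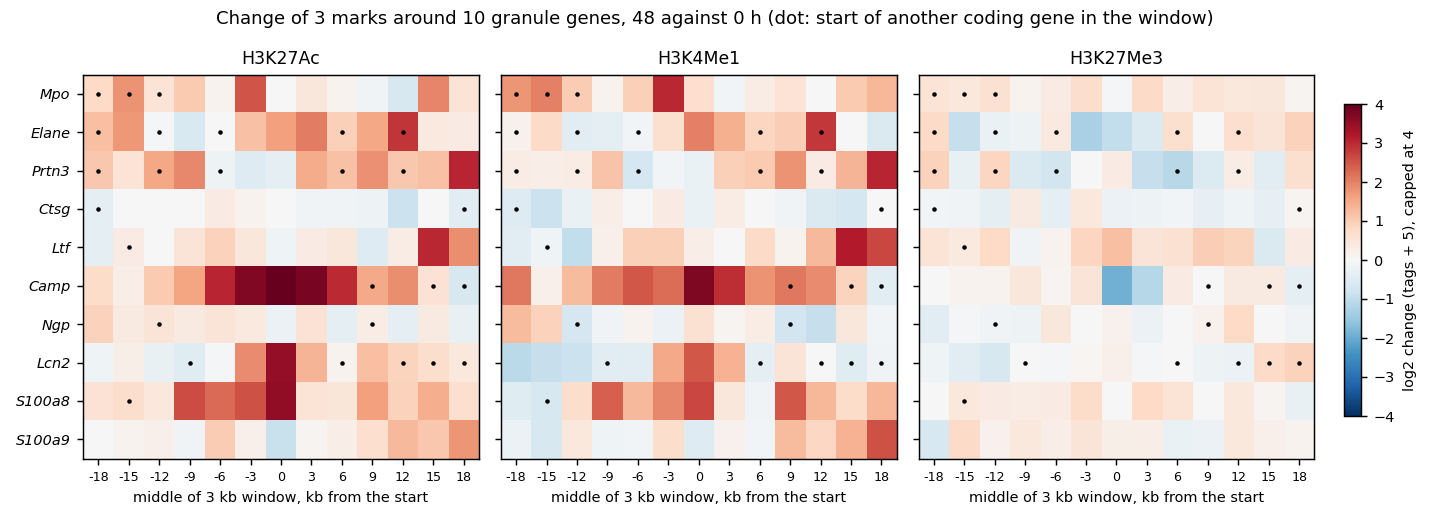
Log2 change from 0 to 48 h (color, 5 tags added, capped at 4) of H3K27Ac, H3K4Me1 and H3K27Me3 in 13 windows of 3 kb (x axis, kb from the start, positive in the direction of transcription) at the 10 genes (y axis). Dots mark windows with the start of another coding gene. H3K27Ac was higher across most windows of Camp, at -3 and 15 kb of Mpo, at 15 and 18 kb of Ltf and upstream of S100a8, while all 13 windows of Ctsg stayed within 2-fold.

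Of 12 flanking windows of Mpo, 4 were higher in H3K27Ac, on both sides of the gene, against 13.1% of such windows of all coding genes. The window 3 kb upstream held 3, 6, 57, 130 and 41 H3K27Ac tags and 6, 13, 45, 85 and 84 H3K4Me1 tags. H3K27Ac there was highest at 24 hpi and the window was still enriched at 48 hpi, for both marks. A further window at 15 kb downstream, beyond the 10833 bp of the gene, held 15, 10, 63, 104 and 72 H3K27Ac tags, more at 48 hpi than the upstream window. Lower levels were reached at 15 kb upstream (4 to 26 tags from 0 to 48 hpi), which holds an annotated start of Bzrap1, and at 9 kb upstream (7 to 20 tags), neither of them enriched at 48 hpi. H3K27Me3 at the window 3 kb upstream held 27, 26, 58, 31 and 47 tags. Windows of Mpo enriched for H3K27Me3 went from 6 to 11 of 13, against 19.5% and 22.1% of such windows of all coding genes. None of them changed by 2-fold in H3K27Me3 from 0 to 48 hpi. Both kinds of mark were present around Mpo at 48 hpi. With the window at the start widened to 6 kb, which takes in part of the upstream site, the log2 change of Mpo was 0.90 for H3K27Ac and 1.69 for H3K4Me1.

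At Ltf, 2 of 12 flanking windows were higher in H3K27Ac at 48 hpi, a share near the 13.1% over all coding genes. Both lay inside the gene, which is 23475 bp long. The window at 15 kb held 6, 26, 88, 187 and 83 H3K27Ac tags and 13, 24, 128, 199 and 156 H3K4Me1 tags. It was enriched for neither of these marks at 0 hpi and for both at 48 hpi. The next window, at 18 kb, held 8, 20, 30, 52 and 42 H3K27Ac tags. Upstream of the start, the window at 3 kb held 3, 33, 14, 11 and 6 H3K27Ac tags, highest at 3 hpi and at no time enriched. H3K27Me3 at 15 kb held 63, 46, 49, 28 and 41 tags, lowest at 24 hpi and at 48 hpi within 2-fold of 0 hpi. Ltf windows enriched for H3K27Me3 went from 5 to 12 of 13, against 19.5% and 22.1% of such windows of all coding genes. No flanking window of Ltf was 2-fold higher in H3K27Me3, so these windows crossed the limit of 35 tags by smaller changes. As at the upstream window of Mpo, H3K27Ac at 15 kb was highest at 24 hpi.

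The 300 bases with the most H3K27Ac tags over the 5 times in each of these windows show the sequence at sites of higher H3K27Ac. The starts of these genes lacked the active marks. They were chosen after the values of the windows had been seen. The Mpo stretch is chr11:87603103-87603402 (mm9, plus strand), intergenic, with its middle at -3.83 kb from the start, and it held 0, 3, 14, 49 and 16 H3K27Ac tags. The Ltf stretch is chr9:110936366-110936665 (plus strand), within an intron of Ltf with its middle 14.7 kb from the start, and it held 1, 4, 24, 61 and 33 tags. Capitals mark motif matches as above.
Mpo upstream: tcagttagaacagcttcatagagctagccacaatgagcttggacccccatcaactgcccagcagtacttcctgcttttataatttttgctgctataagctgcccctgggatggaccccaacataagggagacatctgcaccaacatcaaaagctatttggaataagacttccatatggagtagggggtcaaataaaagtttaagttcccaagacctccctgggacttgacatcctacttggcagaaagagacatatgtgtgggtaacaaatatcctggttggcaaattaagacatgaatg
Ltf intron: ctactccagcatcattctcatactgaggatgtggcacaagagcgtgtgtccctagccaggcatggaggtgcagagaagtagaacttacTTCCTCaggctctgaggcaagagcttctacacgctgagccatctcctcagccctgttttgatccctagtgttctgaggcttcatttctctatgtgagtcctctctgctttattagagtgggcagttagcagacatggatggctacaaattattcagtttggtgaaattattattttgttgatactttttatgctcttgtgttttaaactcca

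The Ltf stretch held 1 match to the PU.1 motif, which 25.4% of 300 base stretches at the middle of flanking windows of all coding genes also hold. The Mpo stretch held no match to any of the 4 motifs.

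Around Camp the change was broad. In H3K27Ac 9 of its 13 windows, start included, were higher at 48 hpi, from 12 kb upstream to 12 kb downstream. Of its 12 flanking windows 8 were higher, against 13.1% over all coding genes. The window 3 kb downstream, which holds the 3′ end of this 2082 bp gene, went from 12 to 229 tags, the window 3 kb upstream from 4 to 113 and that 6 kb upstream from 6 to 85. H3K27Me3 was lower there only at the start and 3 kb downstream (19 to 6 tags). Downstream, the window at 9 kb, which holds an annotated start of Nme6, went from 13 to 46 tags.

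S100a8 had an upstream site that was enriched for the active marks earlier than its start. The window 9 kb upstream held 8, 12, 35, 56 and 75 H3K27Ac tags and 14, 27, 64, 120 and 95 H3K4Me1 tags. It was enriched for H3K4Me1 from 3 hpi, with a count at the limit, and for H3K27Ac from 12 hpi. At 12 hpi the start held 5 and 16 tags. The window 12 kb upstream was enriched for H3K4Me1 already at 0 hpi (54 tags, and 91 at 48 hpi). The windows 6 and 3 kb upstream reached enrichment for H3K27Ac at 48 hpi with 53 and 54 tags, from 7 and 5. Toward S100a8, the window 18 kb downstream of S100a9 went from 2 to 19 H3K27Ac tags, which is not enriched. H3K27Me3 was enriched in all 13 windows of S100a8 at 0 and at 48 hpi. It was enriched in 12 of 13 windows of S100a9 at either time, but these differed at the far upstream end, where the window at -18 kb went from 49 to 30 tags and that at -15 kb from 30 to 54. None of the windows of either gene was 2-fold lower at 48 hpi. Over all 10 genes H3K27Me3 was enriched in 54 windows of 130 at 0 hpi and 63 at 48 hpi, against 19.5% and 22.1%.

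**Figure D3:**
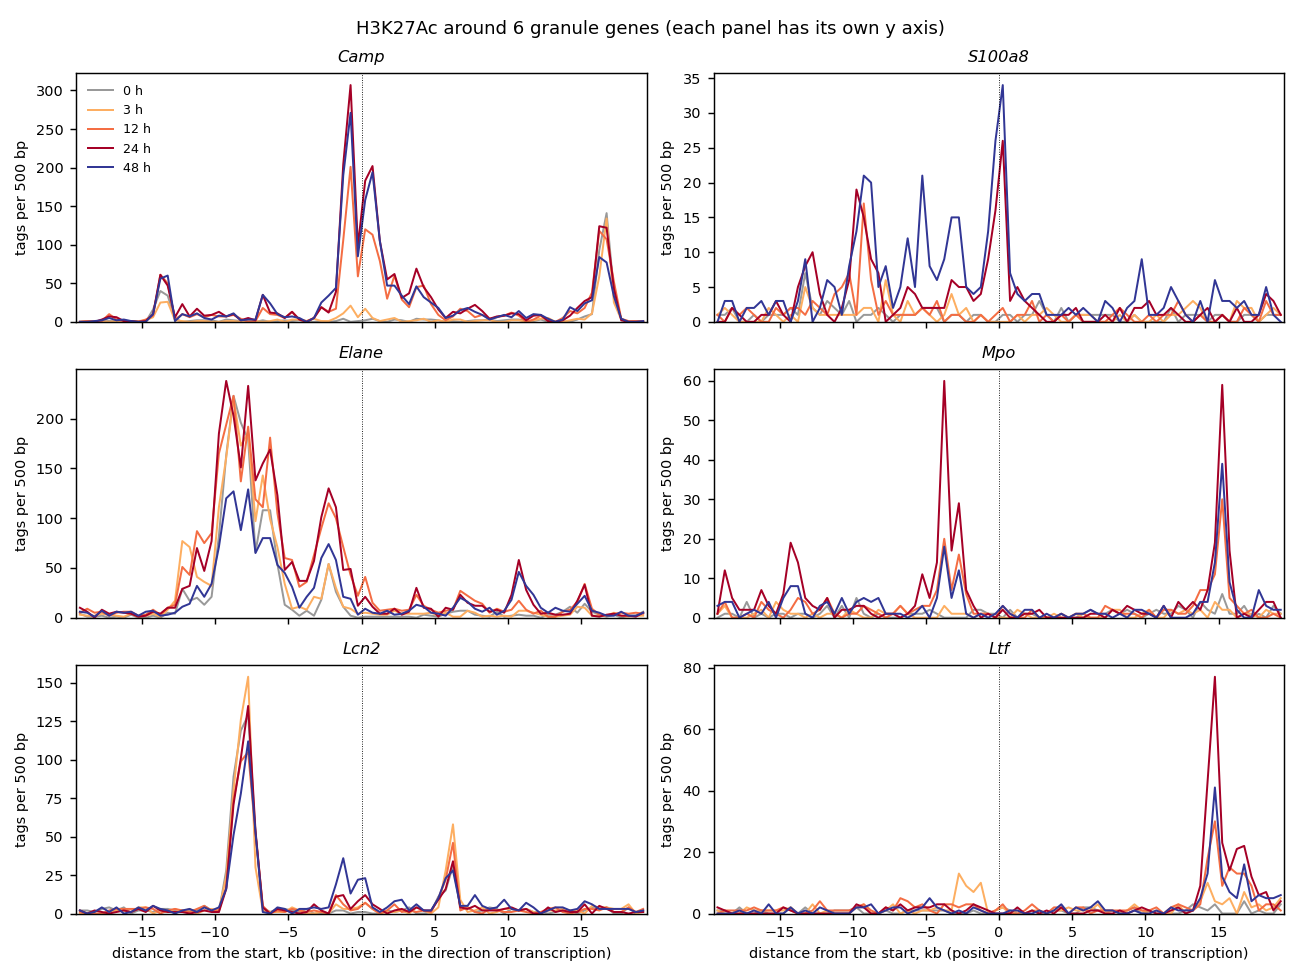
H3K27Ac tags per 500 bp (y axis, own scale in each panel) from 19.5 kb before to 19.5 kb after the start (x axis, in the direction of transcription) at Camp, Elane, Lcn2, S100a8, Mpo and Ltf, with 1 line per time from libraries thinned to equal depth. At Camp the highest bin, 750 bp upstream, held 307 tags at 24 h and 271 at 48 h. The highest bin of Mpo at 24 h lay 3750 bp upstream (60 tags) and that of Ltf 14750 bp downstream (77 tags).

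Elane and Prtn3 share a region that was acetylated before induction. The window 9 kb upstream of Elane, inside the annotated Prtn3 record but before the starts of its coding transcripts, held 864, 884, 996, 1087 and 569 H3K27Ac tags. The window before it, which holds the start of a non-coding Prtn3 transcript, held 88, 250, 279, 198 and 86 tags. An annotated start of BC005764 also lies in it. Between the genes, the window 3 kb upstream of Elane held 109, 143, 435, 473 and 253 tags, and its H3K27Me3 was lower (22 to 6 tags). Farther downstream, the window 12 kb from Elane, which lies in Med16 and holds an annotated start of that gene, held 13, 24, 38, 111 and 126 H3K27Ac tags. This site lacked the fall after 12 hpi that the Elane start had.

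Of 12 flanking windows of Lcn2, 3 were higher in H3K27Ac, against 13.1% over all coding genes. They went from 6 to 36 tags at 3 kb upstream, from 9 to 31 at 3 kb downstream and from 13 to 36 at 9 kb downstream, while the window at 9 kb upstream, which holds an annotated start of Ptges2, was enriched throughout (368 tags at 0 hpi and 263 at 48 hpi). Around Ngp no window was 2-fold higher or lower in H3K27Ac, the largest rise being from 16 to 35 tags at 18 kb upstream, and the acetylated window 12 kb upstream holds an annotated start of Ptpn23 (300 and 428 tags). In H3K4Me1 the window 18 kb upstream of Ngp was higher (20 to 55 tags). Around Ctsg no window was enriched for H3K27Ac or H3K4Me1 at 0 or 48 hpi, and the H3K27Ac count of a window never exceeded 11 tags in any library. Its highest rise from 0 to 48 hpi was from 3 to 5 tags at 6 kb upstream. The windows 12 and 9 kb upstream of Ctsg held at most 5 tags of any mark in any library. Whether reads could be placed there was not tested.

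A list of 20 other granulocyte genes was uneven in the same way, with 8 higher, 1 lower and 11 within 2-fold in H3K27Ac at 48 hpi, against the 5.41% and 9.46% of all starts. Their median log2 change was 0.33. The largest rises were at Hp (haptoglobin, 12 to 731 tags), Mmp8 (neutrophil collagenase, 37 to 1226) and Fpr1 (a formyl peptide receptor, 1 to 37), and the 1 fall was at Cst7 (cystatin F, 692 to 318). Both Hp and Mmp8 rose by 12 hpi, to 288 and 1137 tags. Also higher were Mmp9, Lyz1, Lyz2, Csf3r and Cxcr2. Among those within 2-fold, Ms4a3, Bpi, Chi3l3, Olfm4, Pglyrp1, Cd177, Padi4 and Retnlg held 1 to 12 tags at 48 hpi, below the genome mean. Ctsc, Serpinb1a and Cyba, also within 2-fold, held 868, 108 and 609 tags. Which of the 20 genes are also active in macrophages was not examined. In H3K4Me1 5 of the 20 were higher and 1 lower (against 3.35% and 9.71% of all starts). In H3K27Me3 1 was higher and 1 lower (against 1.57% and 1.92%).

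Of 8 regulators of granulocyte genes, 1 was higher and 2 lower in H3K27Ac, with a median of 0.04. Of all coding starts 5.41% were higher and 9.46% lower. Cebpd, a member of the C/EBP family, went from 122 to 327 tags. The 2 lower were Myb, a regulator of immature progenitors, from 765 to 100, and Cebpa, which encodes C/EBPα, from 98 to 38. The window at Cebpa covers part of the gene, and tags of the endogenous gene and of the C/EBPα transgene were not told apart. Cebpe, the C/EBP factor of late granulocyte development, held 9, 15, 23, 13 and 20 tags, below enrichment at all times. Runx1, with 536 and 594 tags, was within 2-fold. The 12 macrophage genes had a median log2 change of 2.30, led by Msr1 (a scavenger receptor, 1 to 443 tags), Cd14 (the lipopolysaccharide coreceptor, 34 to 1289) and Mmp12 (macrophage elastase, 8 to 238). The largest fall among them was at Ctss (cathepsin S), 232 to 198 tags and within 2-fold. The median of the 10 granule genes, 0.00, lay between that of the macrophage genes and that of the 8 B cell genes, -1.60, whose largest fall was at Cd79a (1232 to 312 tags).

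**Figure D4:**
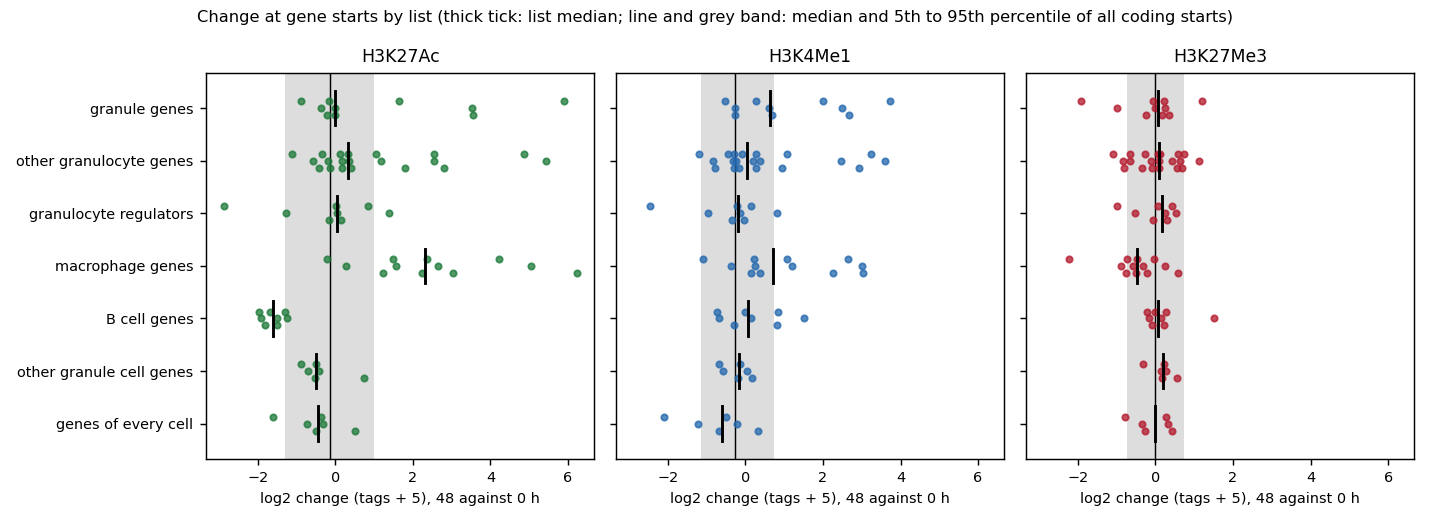
Log2 change from 0 to 48 h (x axis, 5 tags added) at the start of every gene of 7 lists (y axis) for H3K27Ac, H3K4Me1 and H3K27Me3. Each point is 1 gene, thick ticks are list medians, and the line and gray band are the median and the 5th to 95th percentile of all coding starts. In H3K27Ac 4 granule genes lie right of the band and the other 6 within it, whereas the 8 B cell genes lie between -1.96 and -1.25.

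The genes most like each of the 4 higher members were sought over all coding starts more than 50 kb away, by the root mean square difference of log2(tags + 5) over the 15 libraries. This likeness is a description over these libraries. Camp was closest to Orm1 (0.48), which encodes an acute phase protein and held 9, 122, 501, 975 and 933 H3K27Ac tags, and then to Il1b (0.64) and Igsf6 (0.66). Lcn2 was closest to Tank (0.46), Blcap (0.49) and Irg1 (0.50). S100a8 was closest to Cd300lh (0.59), Bpifc (0.60) and Ms4a6d (0.60), and Elane to Cib3 (0.54), Tgm1 (0.55) and Fam75d3 (0.56).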

How the data were processed

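The authors aligned the reads to mm9, kept those with a unique position and discarded duplicates. The submitters' processing notes name Bowtie, with no version, and the study's methods also name Eland. The deposited files hold 1 line per aligned tag of 36 bp (chromosome, start and end, without strand) and no counts or normalized values, so per the file contents the unit is a tag position. Files held 11.0 to 31.6 M tags. Chromosomes 1 to 19 and X were used.

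Here 1 tag per position was kept, each tag was placed 18 bp from its start, and libraries were randomly thinned to the depth of the smallest with the same mark. Gene starts came from GENCODE vM1 on NCBIM37 (mm9), as the start held by the largest number of coding transcripts of a gene, and in a tie (as at Mpo, Prtn3, Camp and S100a9) the most 5′ of them. Cebpd and Gfi1 are annotated without a coding transcript and were taken at the start of the gene record. Tags were counted in 3000 bp windows, and a window was enriched where its Poisson upper tail over the genome mean was below 0.001. Changes are log2 of tags with a pseudocount of 5 tags, and folds are ratios of tags without it. No filter on low counts was used. No test was run, since a time had 1 library of each mark. Intervals are exact (Poisson for tags, Clopper-Pearson for ratios, 95%) and cover counting error only. Copies of a fragment at different positions would not be removed. Promoter sequences were read from the mm9 genome, and motifs were searched as plain letters.

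The rule for names took all 10 members, and from each other list the 3 largest rises and the largest fall in H3K27Ac. It also took the 3 starts most like each member that was higher in H3K27Ac, the flanking window with the largest rise for each member, and neighbors with a start in a window that rose. Other flanking windows, Cebpa and the 300 base stretches were chosen after their values were seen. The members and lists were chosen with earlier results of these data known. Counts were tested on simulated data. Alternatives were 2 other scalings, no thinning, tags as deposited, pseudocounts of 1 and 10 tags, windows of 6 and 1 kb, the start of the gene record and a stricter Poisson limit. The comparison of 48 with 12 hpi, and the window counts without Prtn3 and S100a9, were added after seeing the data. The study's C/EBPα, PU.1, nucleosome and RNA data were not used here. Python 3.11.15, numpy 2.4.6, scipy 1.17.1, pandas 2.3.3 and pysam 0.24.0 were used.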

Additional observations from a re-analysis of the deposited data

How the results depend on the processing

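In all, 55 results were recomputed under 10 alternatives. Of the 456 values, 423 moved by less than their spread or kept their call, 33 moved and 0 reversed. Without replicates this spread is not one between samples. It is also no count of kept calls. All 30 member values scored as unmoved with a pseudocount of 10 tags and before thinning, yet 1 H3K27Me3 call was lost in each. Members with at least 2-fold lower H3K27Me3 went from 2 to 1 with background bins, before thinning, with tags as deposited, with a pseudocount of 10 tags, and with windows of 6 kb and 1 kb. The member lost was Elane, which lay on the threshold. Camp was lower in 10 of 10 settings. Members enriched for H3K27Ac at 0 hpi went from 1 to 2 with windows of 6 kb, because the Elane window then reaches toward Prtn3. Camp, Elane, S100a8 and Lcn2 were at least 2-fold higher in both active marks in 10 of 10 settings, with H3K27Ac log2 changes of 4.95 to 6.30, 1.16 to 2.04, 2.93 to 4.49 and 2.84 to 4.32. Mpo reached 2-fold higher H3K4Me1 in 3 settings and Ngp in 1. S100a9 reached 2-fold lower H3K27Ac in 1 setting and 2-fold lower H3K4Me1 in 1. Windows with higher H3K27Ac, start windows included, numbered 37 to 56 (45 in the main setting, 41 of them flanking).

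No paired analysis was possible because the labels give no replicates, and none was left out in turn for the same reason. At a genome mean of 13.4 to 18.8 tags per window, differences among starts with a few tags were not detectable at this depth.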
